A study of Mus musculus with 8 samples.

Results

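Connexins and aquaporins are the membrane channels of the mammary epithelium that are described here, as 4 connexin genes (Gja1, Gjb2, Gjb5 and Gjb6) and 3 aquaporin genes (Aqp1, Aqp3 and Aqp5) among the 27998 genes counted. These 7 genes were chosen by their measured levels across clusters and stages, so that their levels and their differences between stages are given as a description, with no test. Unique molecular identifiers (UMIs, 1 per captured transcript) were summed over the cells of a mouse and a cluster, and the level of a gene is its share of all UMIs of that sum, as counts per 1e6 UMIs (CPM). Of these sums, 51 held 20 or more cells, 35 of them in the clusters C1 to C15.

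Connexins assemble into gap junctions, channels that join the cytoplasm of neighbouring cells and let ions and small molecules pass. Gja1 is the connexin best known from contractile and basal cells, where coupling spreads signals from cell to cell, and Gjb2 and Gjb6 are the pair known from the supporting cells of the inner ear. Aquaporins let water cross a membrane along an osmotic gradient: Aqp1 is typical of capillary endothelium and red blood cells, Aqp3 also carries glycerol and usually lies in basolateral membranes, and Aqp5 lies in the apical membrane of secretory epithelia such as salivary and lacrimal glands.

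The cells came from mammary glands of C57BL/6N mice that were nulliparous at 8 weeks of age (NP), at day 14.5 of gestation (G), at day 6 of lactation (L), or 11 days after natural weaning, when the gland has involuted (PI). Each library was 1 mouse and each stage had 2 mice. All mice were of 1 strain, and no allele or agent set the groups apart. From vaginal smears, the paper classed both NP mice and PI mouse 2 as in oestrus and PI mouse 1 as in dioestrus. The part of the oestrous cycle in the values below was not tested. Viable cells were sorted for the epithelial surface protein EpCAM after cells with the endothelial, leukocyte and erythroid markers CD31, CD45 and Ter119 had been excluded.

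Total depth ran from 13785920 UMIs (PI mouse 1) to 35711533 UMIs (G mouse 1), and 25009 cells carried both a count profile and a passed quality flag. Of 25806 barcodes, 791 had a sequence found in more than 1 library, and 0 of these were among the cells that passed. The clusters are those of the study. C1 to C5 held hormone-sensing cells (C1 and C2 progenitors, C3 to C5 differentiated) and C6 and C7 luminal progenitors. C8 and C9 held differentiated alveolar cells, C10 and C11 alveolar progenitors, and C12 to C14 basal cells. The paper names C14 myoepithelial cells and C15 Procr-positive basal cells. It adds that C15 carries part of the pericyte markers and may be non-epithelial. Basal cells below are C12 to C14. Most clusters belong to 1 stage (C1, C3 and C7 to PI, C2, C4 and C6 to NP, C5, C8, C10 and C13 to G, C9, C11, C14 and C15 to L), so that cluster and stage cannot be told apart for them. The summed level of the basal markers Krt5, Krt14, Acta2 and Trp63 was 6933 to 32600 CPM in the 8 sums of C12 to C14. The immune sum C17 of L mouse 1 also held 9223 CPM, C15 of the L mice 7722 and 8890 CPM, and C11 of the L mice 4666 and 3345 CPM. The endothelial markers summed to 2844 to 3874 CPM in C19 and to at most 135 CPM elsewhere, and fibroblast markers to 11840 to 39230 CPM in C18 and at most 1011 CPM elsewhere.

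Gjb2 and Gjb6 lie side by side on chromosome 14, both on the minus strand, at 57098600 to 57104702 and 57123303 to 57133611 of GRCm38 (GENCODE M21, matched by gene ID; the counts were made on mm10, the same assembly). A gap of 18600 bases separates them. The 250 bases before the start of each are printed because these neighbours had their highest levels in the same cluster, and those of Aqp3 because its level differed between stages in several cell types. The sequences are RefSeq windows on GRCm38.p6, read 5′ to 3′ on the gene's strand, and capitals mark matches on either strand to the GC box letters GGGCGG, the CCAAT box, the TATA box letters TATAAA, the STAT letters TTCNNNGAA or the AP-2 letters GCCNNNGGC.
Gjb2, chr14:57104703-57104952, minus strand: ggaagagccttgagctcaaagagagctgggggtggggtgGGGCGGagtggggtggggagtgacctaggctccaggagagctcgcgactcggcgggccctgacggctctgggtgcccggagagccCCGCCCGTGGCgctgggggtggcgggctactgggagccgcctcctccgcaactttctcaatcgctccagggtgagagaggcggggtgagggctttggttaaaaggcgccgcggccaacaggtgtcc
Gjb6, chr14:57133612-57133861, minus strand: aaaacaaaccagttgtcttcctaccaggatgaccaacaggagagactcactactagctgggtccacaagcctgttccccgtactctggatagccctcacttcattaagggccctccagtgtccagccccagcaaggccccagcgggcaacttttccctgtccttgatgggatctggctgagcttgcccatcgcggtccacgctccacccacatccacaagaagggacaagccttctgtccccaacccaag
Aqp3, chr4:41098184-41098433, minus strand: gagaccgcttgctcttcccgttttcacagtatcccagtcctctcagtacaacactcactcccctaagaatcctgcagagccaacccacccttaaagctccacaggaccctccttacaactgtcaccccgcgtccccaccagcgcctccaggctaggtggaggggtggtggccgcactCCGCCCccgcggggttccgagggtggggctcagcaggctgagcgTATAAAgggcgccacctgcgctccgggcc
The Gjb2 window held GGGCGG 2 times and GCCNNNGGC once, the GCCNNNGGC match overlapping the second GGGCGG match. Its GC content was 69.2% with 18 CG pairs. None of the 5 motifs occurred in the Gjb6 window, whose GC content was 56.8% with 5 CG pairs. Aqp3 held TATAAA 29 bases before its start and GGGCGG on the other strand, in a window of 64% GC. Among 32851 windows of all genes, 32.7% held the GC box letters, 33.8% the CCAAT box, 12.4% the TATA box letters, 7.02% the STAT letters and 13.7% the AP-2 letters, and the median GC content was 52.4%. A match describes the letters only. Windows were found for all 7 genes.

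Gja1 was the connexin of the basal cells. In the basal cluster C12 its level was 433 and 402 CPM in the NP mice and 466 and 310 CPM in the PI mice. It was 600 and 822 CPM in the G mice (C13) and 377 and 470 CPM in the L mice (C14). The G mice lay above all other basal sums, while NP, PI and L overlapped. At least 1 Gja1 UMI was found in 90.5% and 96.0% of the C13 cells, at a median depth of 6201 and 6060 UMIs per cell, and in 18.7% and 23.0% of the alveolar C8 cells of the same mice at 10900.5 and 8676.5 UMIs. With every cell thinned to 1000 UMIs, these shares were 40.6% and 53.7% in C13 and 1.71% and 2.86% in C8.

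Luminal cells held less Gja1, in a graded order. Alveolar progenitors had 52.0 and 118 CPM in G (C10) and 69.4 and 78.8 CPM in L (C11), luminal progenitors had 54.9 and 56.4 CPM in NP (C6) and 36.0 and 47.2 CPM in PI (C7), and hormone-sensing progenitors had 35.0 and 30.1 CPM in NP (C2) and 24.4 and 26.5 CPM in PI (C1). The mice of C10 and C11 overlapped, those of C6 lay above those of C7, and 22 PI cells that remained in C6 had 98.9 CPM from 15 UMIs. The mice of C7 lay just above those of C2. Differentiated hormone-sensing cells were lowest, with 16.7 and 14.5 CPM in NP (C4) and 2.10 and 2.58 CPM in PI (C3). The small remainder of C4 in the PI mice, 40 and 88 cells, had 25.3 and 15.3 CPM from 8 UMIs each.

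Basal transcripts were also counted in the alveolar clusters of lactation. Acta2, the smooth muscle actin of basal cells, stood at 3659 and 2439 CPM in C11, and Gja1 at the ratio to Acta2 found in C14 would be 52.0 and 50.3 CPM there, against 69.4 and 78.8 CPM measured. In C9, the same ratio gives 23.5 and 12.8 CPM against 20.96 and 17.5 CPM measured. In gestation the ratio gave 3.72 and 9.51 CPM for C10 and 3.11 and 5.39 CPM for C8, below the 52.0 and 118 CPM and the 20.1 and 29.8 CPM measured. Gja1 was also high outside the epithelium, at 230 to 299 CPM in the NP, G and L sums of the fibroblast cluster C18 and at 323 to 446 CPM in the endothelial cluster C19.

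Gjb2 was the connexin of the alveolar lineage, and 83.4% of its 8331 UMIs in C1 to C19 came from C8. The G mice had 161 and 123 CPM in the differentiated alveolar cells (C8) and 91.0 and 76.7 CPM in the alveolar progenitors (C10). In lactation the levels were 24.5 and 66.0 CPM in C9 and 19.4 and 25.9 CPM in C11. C8 lay above C10 and C10 above C9 in every mouse, and C9 overlapped with the luminal progenitors of PI mice (C7), at 42.1 and 33.1 CPM. This order depends on the milk protein genes, which took a large share of the UMIs in C9. With those genes left out of the totals, C9 had 44.3 and 113 CPM and overlapped with C10, at 91.4 and 76.9 CPM, while it lay above C7, at 42.7 and 33.6 CPM. Below C7 came C11, C1 (26.5 and 16.5 CPM) and C6 (22.9 and 16.2 CPM), which overlapped each other. C3 and C4 of the hormone-sensing lineage held at most 1.105 CPM in any mouse, and the basal cells of L mice (C14) 0.142 and 0.421 CPM. In C13, Gjb2 stood at 3.03 and 2.75 CPM, where the milk protein transcript Csn2 at the C8 ratio would bring 3.28 and 2.15 CPM.

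Gjb6 was narrower still, with 97.9% of its 2369 UMIs in C8. Its level there was 51.1 and 44.0 CPM. The progenitors of the same G mice (C10) had 1.53 and 3.12 CPM, and C9 of the L mice had 0 and 6.74 CPM, from 0 and 5 UMIs. C11 gave 0 UMIs in both L mice, which allows up to 2.77 and 3.53 CPM. No other sum of C1 to C15 exceeded 2.28 CPM, so C8 stood alone above its neighbours while C9, C10, C12 and C13 overlapped. In C8, 39.0% and 33.0% of cells held a Gjb6 UMI, against 1.71% and 0.673% of the basal C13 cells of the same mice, and after thinning to 1000 UMIs 5.09% and 5.12% against 0.191% and 0.168%.

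Within C8, Gjb2 and Gjb6 were found together in 33.1% and 24.2% of cells. The single shares, 72.5% and 59.1% for Gjb2 and 39.0% and 33.0% for Gjb6, multiply to 28.3% and 19.5%. Cells with more UMIs are more likely to hold either gene, and the part of depth in the excess was not tested.

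Gjb5 was close to the limit of detection, with 176 UMIs in C1 to C19. No sum of C1 to C15 exceeded 2.35 CPM, and C5 to C11 and C15 gave 0 UMIs in every mouse. In C8, 0 UMIs allow up to 0.113 and 0.137 CPM. Basal cells held 2.35 and 1.37 CPM in NP, 1.52 and 2.06 CPM in G and 1.23 and 1.99 CPM in L, and these stages overlapped. Hormone-sensing C3 held 1.20 and 1.48 CPM. The highest levels were in the fibroblast cluster C18, at 7.89 and 21.67 CPM in L from 10 and 5 UMIs and at 21.75 CPM in PI mouse 2 from 3 UMIs. Gjb5 sits on chromosome 4 at 127354809 to 127358181, minus strand. Counts from the 3′ end can be set side by side for 1 gene across sums, and the levels printed here do not rank transcripts of different genes.

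**Figure D1:**
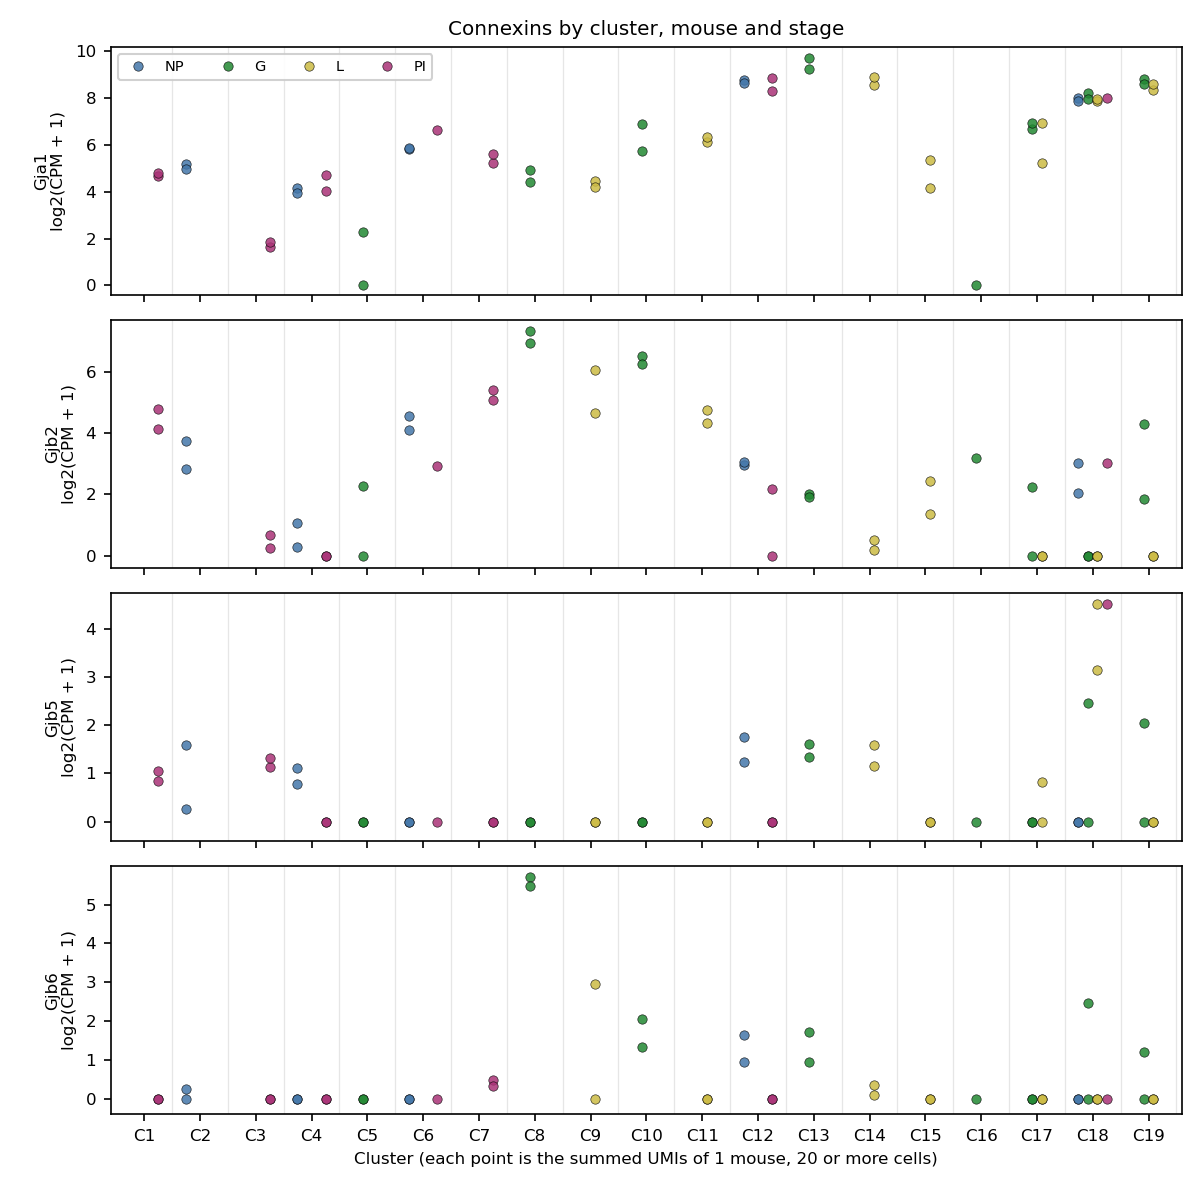
Level of the 4 connexins as log2(CPM + 1) on the vertical axis by cluster on the horizontal axis, with 1 point for each mouse and colour for its stage. Gja1 peaks in the basal clusters C12 to C14 and is also high in C18 and C19, Gjb2 peaks in C8 and C10, Gjb6 stands out only in C8, and Gjb5 stays at or below 2.35 CPM in C1 to C15.

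The highest mean levels of Aqp5 were those of hormone-sensing cells of PI mice, and 52.3% of its 31189 UMIs came from C3. The PI mice had 737 and 889 CPM in C3, 319 and 661 CPM in C4 and 357 and 456 CPM in the progenitors C1. The NP mice had 251 and 160 CPM in C4 and 171 and 129 CPM in C2. The PI sums of these cells all lay above the NP sums. The hormone-sensing cells of G mice (C5) had 40.6 and 124 CPM, from 5 and 32 UMIs, and overlapped with the luminal progenitors. A UMI of Aqp5 was found in 88.3% and 85.7% of C3 cells and in 80.3% and 67.2% of C4 cells of NP mice, and after thinning to 1000 UMIs in 41.3% and 47.2% against 20.8% and 13.9%.

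A second site of Aqp5 was the alveolar lineage of lactation. The alveolar progenitors C11 of L mice had 379 and 320 CPM, and C10 of G mice had 24.5 and 23.7 CPM. The differentiated cells had 110 and 99.7 CPM in C9 and 29.7 and 30.5 CPM in C8. C11 lay within the range of the PI hormone-sensing sums, and both G clusters lay below every sum of C1 to C11 from the other stages. A UMI was found in 72.5% and 83.1% of C11 cells at 6691 and 8065 UMIs per cell, against 0.733% and 0.612% of the basal C14 cells of the same mice at 3701 and 4148 UMIs. Milk protein genes took 447500 and 417200 CPM of the UMIs in C9, and leaving those genes out of the total raised the mean of Aqp5 in C9 from 105 to 185 CPM.

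Luminal progenitors had 67.3 and 71.3 CPM of Aqp5 in NP (C6) and 92.7 and 101 CPM in PI (C7). Basal cells held little: 32.0 and 17.4 CPM in NP, 1.01 and 1.14 CPM in G and 2.32 and 1.14 CPM in L. In the PI basal cells the mice lay far apart, at 8.96 and 130 CPM from 1 and 37 UMIs. The hormone-sensing gene Prlr stood at 0 and 680 CPM and the luminal keratin Krt18 at 977 and 2832 CPM in the same sums. Their part in the Aqp5 value was not tested. With Prlr at the ratio of C4, Aqp5 would be 0 and 206 CPM there.

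Aqp3 was shared by basal, luminal progenitor and hormone-sensing cells and was low in the alveolar lineage and in the basal cells of L mice. The alveolar clusters came from G and L only, so that lineage and stage cannot be told apart there. Basal cells had 260 and 254 CPM in NP and 654 and 440 CPM in PI (C12), 41.5 and 63.8 CPM in G (C13) and 9.51 and 11.9 CPM in L (C14). The 4 stages did not overlap in basal cells. Luminal progenitors had 164 and 195 CPM in NP (C6) and 413 and 370 CPM in PI (C7). Hormone-sensing progenitors had 96.5 and 133 CPM in NP (C2) and 383 and 239 CPM in PI (C1), and differentiated hormone-sensing cells had 96.9 and 96.2 CPM in NP (C4) and 364 and 211 CPM in PI (C3). In each of these cell types both PI mice lay above both NP mice. The C4 cells that remained in PI mice had 193 and 161 CPM, above C4 of NP and below C3 of PI, and the 22 PI cells in C6 had 39.6 CPM from 6 UMIs.

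In alveolar cells Aqp3 stood at 12.4 and 19.1 CPM in C8, 0.765 and 10.6 CPM in C10, 8.33 and 1.18 CPM in C11 and 0 and 9.43 CPM in C9. C8 lay above the other 3 clusters, which overlapped each other. With milk protein genes left out of the totals, C8 had 13.7 and 20.2 CPM and overlapped with C9, at 0 and 16.2 CPM. The C11 value of L mouse 1 came from 9 UMIs in 1 cell. Aqp3 was uneven inside the clusters that held it: 49.8% and 47.9% of NP basal cells and 51.7% and 54.2% of C7 cells held a UMI, while single cells reached 38 UMIs in C12 and 42 UMIs in C7. Aqp3 at the ratio to Krt18 found in C4 would be 22.3 and 16.65 CPM in NP basal cells and 35.1 and 55.4 CPM in PI basal cells, below the values measured.

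Aqp3 and Aqp5 met in the hormone-sensing cells. Both were found in 70.1% and 62.3% of C1 cells, 52.5% and 55.6% of C2 cells, 51.2% and 42.3% of C3 cells and 43.6% and 33.0% of C4 cells of NP mice. The products of the single shares were 68.8% and 61.1%, 49.4% and 52.2%, 50.2% and 41.1%, and 41.6% and 31.4%. Each share of both exceeded its product by under 4 percentage points of cells. Gja1 and Aqp3 met in 46.0% and 41.8% of NP basal cells, against products of 45.0% and 42.4%.

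Aqp1 belonged to the endothelial cells that the sort had let through, and 65.8% of its 4718 UMIs came from C19. Its level there was 1296 and 1052 CPM in G and 1675 and 1310 CPM in L, and the L mice lay above the G mice. In basal cells it was 3.996 and 0.915 CPM in NP, 8.34 and 13.95 CPM in G and 25.9 and 6.92 CPM in L. Pecam1, an endothelial adhesion gene, stood at 3.29 and 0.915 CPM in NP, 5.31 and 7.78 CPM in G and 17.4 and 7.16 CPM in L in these clusters. At the C19 ratio of Aqp1 to Pecam1 the basal level of Aqp1 would be 7.84 and 10.45 CPM in G and 24.7 and 9.499 CPM in L. The part of RNA from endothelial or red blood cells in basal Aqp1 was not tested.

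Luminal progenitors of PI mice held Aqp1 with little Pecam1. C7 had 24.35 and 24.35 CPM, from 180 and 194 UMIs in 6.67% and 7.63% of cells, while Pecam1 stood at 0.811 and 2.01 CPM and Cdh5 at 0 and 1.25 CPM. C6 of NP mice had 5.13 and 9.12 CPM, C1 of PI mice 10.6 and 14.5 CPM and C2 of NP mice 5.99 and 3.18 CPM. C7 lay above C6 and C1 above C2 in every mouse, while the 22 PI cells in C6 gave 0 UMIs. In C3 and C4 no sum exceeded 1.22 CPM, and C5 gave 0 and 1 UMIs.

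**Figure D2:**
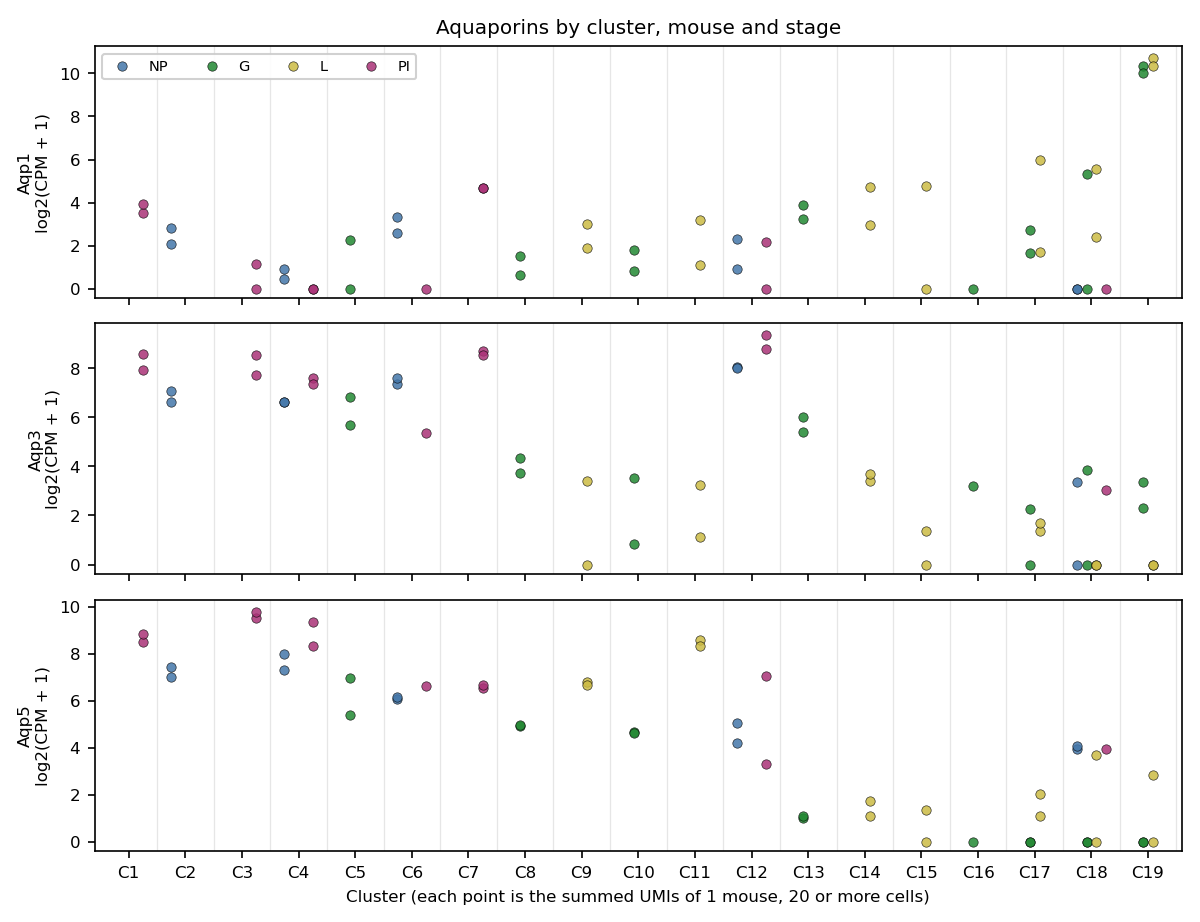
Level of the 3 aquaporins as log2(CPM + 1) on the vertical axis by cluster on the horizontal axis, with 1 point for each mouse and colour for its stage. Aqp1 peaks in the endothelial cluster C19, and Aqp3 is high in C1 to C7 and C12 and low in C8 to C11 and in the basal cluster C14. Aqp5 is high in C1 to C4 and C11 and, among the clusters C1 to C14, lowest in the basal clusters C13 and C14.

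The genes whose profiles were most alike over the 35 sums of C1 to C15 were found among 9761 genes by Pearson's r of log2(CPM + 1), given as a description because the sums share mice and clusters. For Gja1 they were Plxdc2 (r = 0.93), Iffo2 (r = 0.91) and the actin-binding gene Palld (r = 0.91). For Gjb2 they were Cytip (r = 0.90), Ogfrl1 (r = 0.89) and Timd2 (r = 0.89), and for Gjb6 Bcl2l15 (r = 0.91), the proton pump subunit gene Atp6v1c2 (r = 0.85) and the chemokine gene Ccl20 (r = 0.78). Aqp3 came closest to Plaur, the urokinase receptor gene (r = 0.93), Tnfrsf12a (r = 0.91) and Mul1 (r = 0.90), and Aqp5 to Tmem30b (r = 0.92), Mlph (r = 0.92) and Ankrd33b (r = 0.91). For Aqp1 and Gjb5, r reached at most 0.69 and 0.72. Among the 7 genes themselves, Gjb2 and Gjb6 gave r = 0.59, Aqp3 and Aqp5 r = 0.40 and Gja1 and Aqp5 r = -0.56.

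For differences between stages, UMIs were summed per mouse over all clusters of a cell type and fitted with edgeR across all genes. The log2 differences of the 7 genes are printed with their standard errors and with no p, since these genes were chosen by such levels. Whether mice overlapped is also a description only. With 2 mice against 2, a share of 0.333 of genes would not overlap even if the stages were alike. The share over all genes was not counted, so a lack of overlap below is no result about these genes. The shares of genes called, given beside it, come from the edgeR test and are another measure. Genes of 4 lists from the same pathways (17 other connexins and pannexins, 9 other aquaporins, 11 partners of gap junctions and 24 genes of ion and fluid transport) were tested with edgeR's quasi-likelihood test and Benjamini-Hochberg adjustment over all genes. These lists were drawn up with earlier results of these data known.

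From NP to PI, Aqp3 and Aqp5 were higher in all 3 luminal cell types while Gja1 was lower. In luminal progenitors (C6 in NP, mainly C7 in PI), Aqp3 stood at 164 and 195 against 405.0 and 368 CPM (log2 difference 1.19, SE 0.14) and Aqp1 at 5.13 and 9.11 against 23.9 and 24.2 CPM (1.88, SE 0.26). Gjb2 stood at 22.9 and 16.1 against 41.4 and 32.9 CPM (0.98, SE 0.20), and Aqp5 at 67.3 and 72.0 against 92.8 and 101 CPM (0.56, SE 0.13). Gja1 stood at 54.9 and 56.3 against 37.2 and 47.7 CPM (-0.30, SE 0.16). The mice of NP and PI did not overlap for any of these 5 genes. Gjb6 gave 0 UMIs in NP against 3 and 2 UMIs in PI, and Gjb5 0 UMIs in all 4 mice. In this comparison 26.9% of all genes tested were called.

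In hormone-sensing progenitors (C2 in NP, C1 in PI) Aqp3 stood at 96.4 and 133 against 380 and 239 CPM (log2 difference 1.40, SE 0.215) and Aqp5 at 171 and 129 against 354 and 456 CPM (1.43, SE 0.17). Gjb2 was at 12.4 and 6.07 against 26.1 and 16.45 CPM (1.05, SE 0.30), Aqp1 at 5.99 and 3.18 against 10.3 and 14.5 CPM (1.43, SE 0.33), and Gja1 at 35.0 and 30.1 against 23.6 and 26.4 CPM (-0.37, SE 0.17). Again no stage overlapped with the other for these 5 genes, with 16.6% of all genes called. Gjb5 and Gjb6, at most 2.02 CPM, overlapped.

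In differentiated hormone-sensing cells (C4 in NP, mainly C3 in PI) Aqp5 stood at 250 and 160 against 701 and 882 CPM, a log2 difference of 1.91 (SE 0.23). Aqp3 stood at 97.0 and 96.0 against 349 and 209 CPM (1.45, SE 0.20). Gja1 stood at 16.5 and 14.4 against 4.11 and 2.99 CPM (-2.27, SE 0.23). These 3 did not overlap between the stages, while Gjb2, Gjb5, Gjb6 and Aqp1 stood at no more than 1.43 CPM in any mouse and overlapped. Of all genes tested, 14.3% were called.

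In basal cells the PI sums were small, 28 and 59 cells with 114382 and 312628 UMIs. Aqp3 stood at 260 and 253 CPM in NP and 638 and 400 CPM in PI (log2 difference 0.93, SE 0.20), with no overlap. Gja1 overlapped at 433 and 403 against 463 and 346 CPM (-0.11, SE 0.19). Aqp5 overlapped as well, at 32.0 and 17.3 against 8.74 and 118 CPM, and so did Aqp1. Gjb2, Gjb5 and Gjb6 gave at most 1 UMI in a PI sum. Here 7.43% of all genes were called. The luminal markers summed to 2985 and 7775 CPM in the PI sums of C12 and to 5815 and 3919 CPM in the NP sums, and their part in these values was not tested.

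From NP to G the channels of basal cells parted. Gja1 stood at 433 and 403 CPM in NP (C12) and 598 and 817 CPM in G (mainly C13), a log2 difference of 0.845 (SE 0.14). Aqp3 stood at 260 and 253 against 41.5 and 72.9 CPM (-2.07, SE 0.19), Aqp5 at 32.0 and 17.3 against 1.01 and 1.12 CPM (-4.45, SE 0.41), and Gjb2 at 6.82 and 7.28 against 3.02 and 2.92 CPM (-1.14, SE 0.39). Aqp1 was also higher in G, at 3.996 and 0.910 against 8.80 and 13.7 CPM (2.06, SE 0.43, and 3.63 without NP mouse 1), with Pecam1 as given above. None of these 5 overlapped, Gjb5 and Gjb6 at no more than 2.35 CPM did, and 46.1% of all genes were called. The NP basal sums also held the hormone-sensing gene Prlr at 198 and 221 CPM, and Aqp5 at the C4 ratio to Prlr would be 21.8 and 15.85 CPM there.

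From G (mainly C13) to L (mainly the myoepithelial C14), basal Gja1 stood at 598 and 817 against 378 and 470 CPM (log2 difference -0.625, SE 0.17). Aqp3 stood at 41.5 and 72.9 against 9.51 and 11.85 CPM (-2.32, SE 0.26). Gjb2 stood at 3.02 and 2.92 against 0.142 and 0.421 CPM (-3.30, SE 0.58), from 12 and 13 against 3 and 7 UMIs. Gjb6, from 9 and 4 UMIs in G, was lower as well, at 2.26 and 0.898 against 0.284 and 0.0602 CPM. In C13 of the G mice, Csn2 at the C8 ratio would bring 3.28 and 2.15 CPM of Gjb2 and 1.04 and 0.767 CPM of Gjb6. The part of alveolar RNA in these 2 differences was not tested. Aqp5 stood at 1.01 and 1.12 against 2.32 and 1.14 CPM (0.82, SE 0.56), while Aqp1 overlapped at 8.80 and 13.7 against 25.9 and 6.92 CPM, and Gjb5 overlapped. In this comparison 48.3% of all genes were called. The G mice are in both comparisons, so the NP to G and G to L values are not independent.

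From G to L in the alveolar lineage, Aqp5 was higher and Gjb2 was lower. In alveolar progenitors (C10 in G, mainly C11 in L) Aqp5 stood at 24.5 and 23.7 against 368 and 314 CPM, a log2 difference of 4.11 (SE 0.19) or 17.2-fold. Gjb2 stood at 91.0 and 76.7 against 18.61 and 25.3 CPM (-1.66, SE 0.24), while Gja1 overlapped at 52.0 and 118 against 67.4 and 77.1 CPM (0.02, SE 0.33). Aqp1 and Aqp3, at 1 to 17 UMIs a sum, overlapped, Gjb6 gave 2 and 5 UMIs against 0, and Gjb5 gave 0 in all mice. Of all genes, 28% were called here.

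In differentiated alveolar cells (C8 in G, mainly C9 in L, with 43 and 48 cells in L) Aqp5 stood at 29.7 and 30.5 against 113 and 101 CPM (log2 difference 2.72, SE 0.17). Gjb6 stood at 51.1 and 44.0 against 0 and 6.71 CPM (-2.75, SE 0.57), and Gjb2 at 161 and 123 against 26.0 and 65.8 CPM (-0.67, SE 0.31). The stages did not overlap for these 3, nor for Aqp1, at 0.567 and 1.87 against 6.93 and 2.69 CPM from 4 and 2 UMIs in L, or Aqp3, at 12.4 and 19.1 against 0 and 9.40 CPM from 0 and 7 UMIs in L. Gja1 overlapped at 20.1 and 29.8 against 20.8 and 17.45 CPM, and Gjb5 gave 0 UMIs. The Aqp3 value depends on the mice kept: without L mouse 1 its log2 difference is 0.201 and with both L mice -0.66. The plain log2 ratio of mean CPM gave -1.63 for Gjb2, 1.83 for Aqp5, -3.82 for Gjb6 and -1.74 for Aqp3. For Aqp1 it gave 1.98 against a fitted 2.85, and for Gja1 -0.383 against a fitted 0.517 (SE 0.374). Without milk protein genes the means in G and L were 154 and 79.7 CPM for Gjb2 and 32.6 and 187 CPM for Aqp5. Aqp3 then stood at 13.7 and 20.2 CPM in C8 and 0 and 16.2 CPM in C9, which overlap. The cause of the gaps to the fitted values was not tested. Leaving out 1 mouse gave fitted values of -1.63 to -0.18 for Gjb2. For Gjb6 it gave -12.6 without L mouse 2, where L has 0 UMIs left and the value depends on the prior count, to -1.89 without L mouse 1. Of all genes, 18.7% were called.

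**Figure D3:**
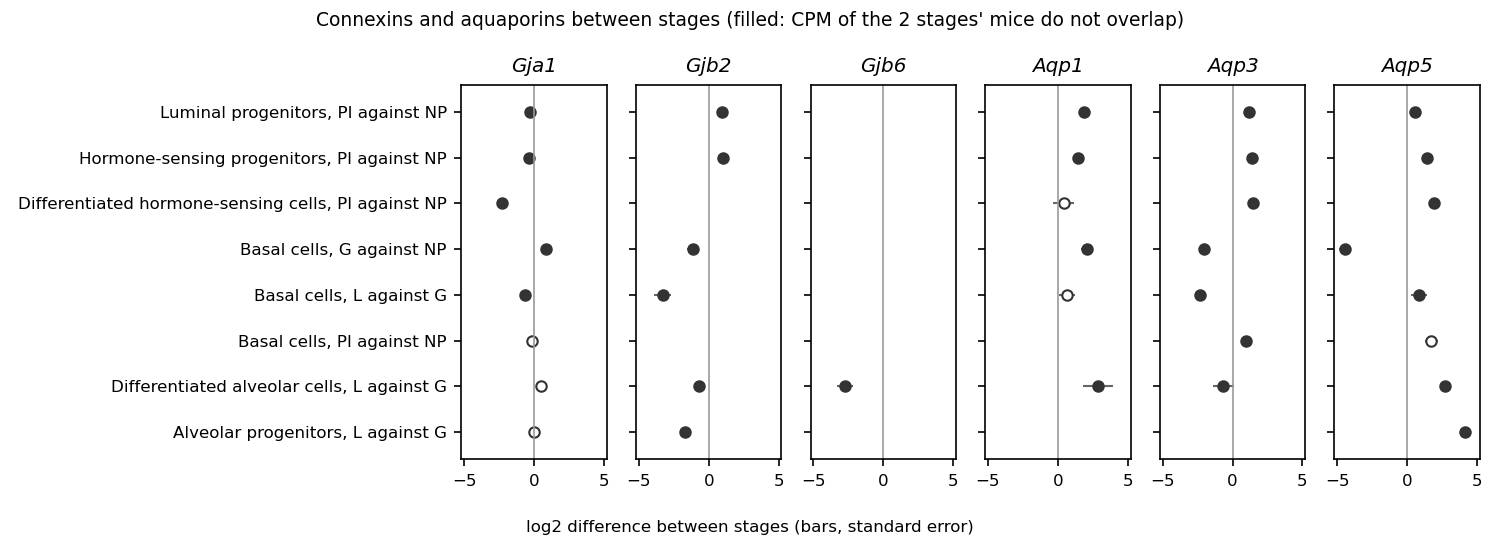
Log2 difference between stages (horizontal axis) for 6 genes in each of the 8 comparisons (vertical axis), with standard errors as bars, filled points where the mice of both stages do not overlap in CPM, and no point where the gene did not pass the filter on low counts or a stage held 3 or fewer UMIs. Aqp3 lies right of 0 in the 4 PI against NP comparisons and left of 0 in basal cells of G and L, Aqp5 lies furthest right in the alveolar progenitors, and Gja1 lies furthest left in the differentiated hormone-sensing cells.

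Of the 17 other connexins and pannexins, 4 reached 20 CPM as a mean of both mice in some sum of C1 to C15. Gja4 and Gjc1, connexins of vessel walls, did so in C15, Gjb1, the connexin of liver and Schwann cells, in C9, and the pannexin Panx1 in C13. In basal cells 2 were tested from NP to G, and both rose, where 46.1% of all genes were called. Panx1 stood at 34.1 and 36.9 against 61.9 and 66.2 CPM (log2 difference 0.95, SE 0.16, adjusted p = 0.000139 by edgeR) and Gjc1 at 7.05 and 8.19 against 19.4 and 20.9 CPM (1.52, SE 0.26, adjusted p = 0.000174), in the cells in which Gja1 was higher. The median log2 difference was 1.23 over these 2 and 0.00878 over all genes. From G to L 3 were tested, of which Gja4 rose and Gjc1 fell to 7.995 and 6.02 CPM (-1.40, SE 0.21, adjusted p = 0.000963). Of the 12720 genes tested there, 3057 fell, and 48.3% were called in either direction. Gja4 stood at 352 and 356 CPM in C15 of the same L mice, and the part of C15 RNA in its rise was not tested. From NP to PI the basal cells gave 0 calls of 2 by edgeR, 0 at an unadjusted p under 0.05 and 0 by DESeq2. Of all genes, 7.43% were called by edgeR in that comparison.

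In luminal progenitors Gjb1 rose from NP to PI, at 5.13 and 11.6 against 13.25 and 19.7 CPM (log2 difference 1.13, SE 0.34, adjusted p = 0.0322 by edgeR), 1 of 2 tested, and DESeq2 called 0. In differentiated alveolar cells Gjb1 rose from 1.89 and 1.503 in G to 27.7 and 33.6 CPM in L (5.07, SE 0.40, adjusted p = 2.37e-06), in the cells in which Gjb2 and Gjb6 were lower, and Gja4 rose, 2 of 3 tested. The part of RNA from C15 or other cells in the rise of Gja4 was not tested. In differentiated hormone-sensing cells edgeR called 0 of 2, with 0 at an unadjusted p under 0.05 and 0 called by DESeq2. In hormone-sensing progenitors edgeR called 0 of 1, with 1 at an unadjusted p under 0.05 and 0 called by DESeq2, and in alveolar progenitors 0 of 1, with 0 at an unadjusted p under 0.05 and 1 of the list called by DESeq2. Of all genes, 26.9% were called in luminal progenitors, 18.7% in differentiated alveolar cells and 14.3% in differentiated hormone-sensing cells. The share was 16.6% in hormone-sensing progenitors and 28% in alveolar progenitors. With so few genes tested, these counts do not describe the family.

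None of the 9 other aquaporins reached 20 CPM in a sum of C1 to C15, and the highest mean was 9.86 CPM for Aqp11 in C5, which rested on 4 UMIs, no more than the 3 counts per mouse taken as the limit. Aqp11 rose in differentiated hormone-sensing cells from NP to PI, 1 of 1 tested, where 14.3% of all genes were called. Aqp9 fell in basal cells from NP to G, 1 of 1 tested, and from G to L, 1 of 2 tested. In these comparisons 46.1% and 48.3% of all genes were called.

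Among the 11 partners of gap junctions, Cav1, the caveolin whose protein binds connexins, moved in all 8 comparisons. It fell from NP to PI in luminal progenitors, hormone-sensing progenitors, differentiated hormone-sensing cells and basal cells, and in the last of these it was the only partner called of 9 tested, at 219 and 241 against 105 and 89.6 CPM (log2 difference -1.29, SE 0.24, adjusted p = 0.00105). Of all genes, 7.43% were called there. With no filter on low counts the adjusted p of Cav1 in that comparison was 0.135 by edgeR. It rose in basal cells from NP to G and from G to L. In alveolar progenitors from G to L it rose from 3.06 and 11.9 to 159 and 159 CPM (4.60, SE 0.33, adjusted p = 1.36e-05), where Acta2 of basal cells stood at 3659 and 2439 CPM in C11, and the part of basal RNA was not tested. Tjp1, a scaffold that binds Gja1, fell in the same cells from 91.8 and 86.1 to 32.8 and 29.9 CPM (-1.21, SE 0.20, adjusted p = 0.00216), as did the cadherin Cdh1.

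Of the 24 transport genes, 5 rose and 3 fell in luminal progenitors from NP to PI among 20 tested, where 26.9% of all genes were called. In hormone-sensing progenitors 6 rose and 2 fell among 17, against 16.6% of all genes, and in differentiated hormone-sensing cells 5 rose and 2 fell among 18, against 14.3%. Scnn1b, a subunit of the epithelial sodium channel, rose beside Aqp3 and Aqp5 in all 3. In luminal progenitors it stood at 12.4 and 9.11 against 60.0 and 56.8 CPM (log2 difference 2.50, SE 0.185, adjusted p = 7.28e-06). In basal cells from NP to PI edgeR called 0 of 15, against 7.43% of all genes, with 2 at an unadjusted p under 0.05 and 0 called by DESeq2. From NP to G in basal cells 1 rose and 8 fell of 18, a share near the 46.1% of all genes, among them Slc12a2, the sodium, potassium and chloride cotransporter, from 204 and 192 to 34.0 and 43.1 CPM (-2.27, SE 0.145, adjusted p = 8.33e-09), and from G to L 7 rose and 6 fell of 18, against 48.3% of all genes. In differentiated alveolar cells 5 rose and 1 fell of 19, against 18.7% of all genes. In alveolar progenitors 7 rose and none fell of 14, against 28% of all genes called in either direction, among them the potassium channel gene Kcnn4, from 93.3 and 68.6 to 205 and 248 CPM (1.77, SE 0.19, adjusted p = 0.000169), beside Aqp5.

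**Figure D4:**
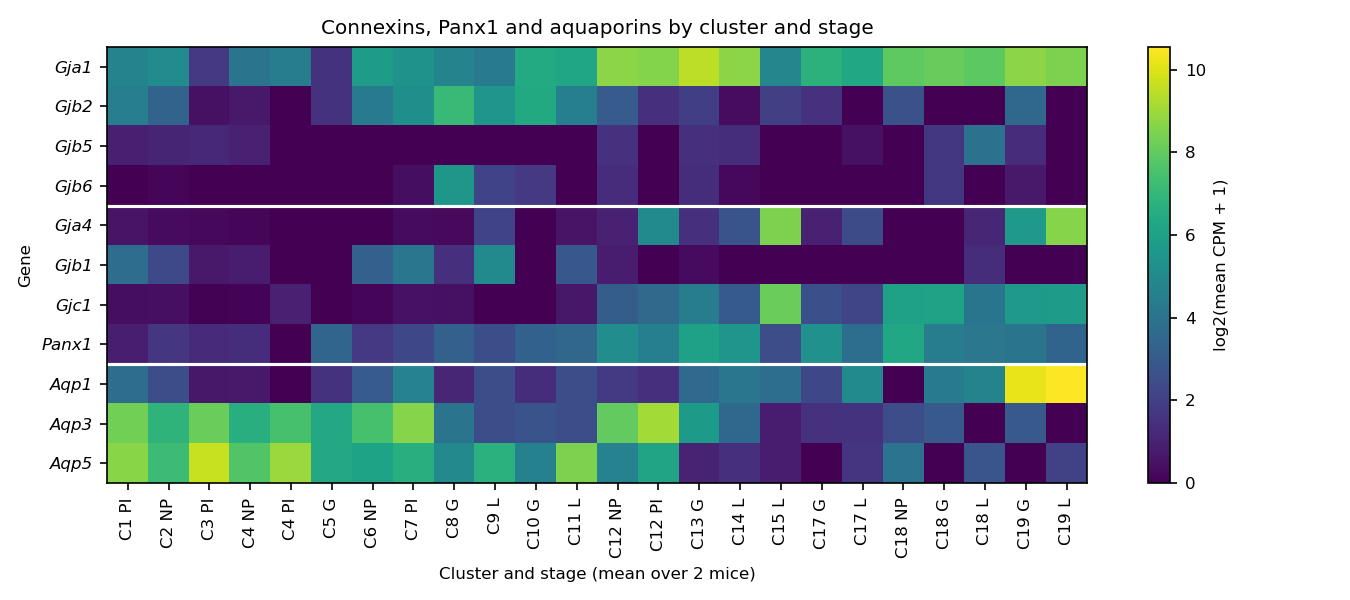
Heat map of log2(mean CPM + 1), the mean being over 2 mice, for 11 genes (vertical axis) in 24 combinations of cluster and stage (horizontal axis), with white lines between the 4 connexins described, the 4 other connexin and pannexin genes that reached 20 CPM, and the aquaporins. Each row is to be read along itself, since counts of different genes are not scaled to transcript length. Gja1 is brightest in C13, Gja4 in C15 and C19, and Aqp1 in C19.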

How the data were processed

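The authors sequenced 3′ single-cell libraries (10x Chromium) of 8 mice and deposited whole UMI counts per gene and barcode, not normalised between libraries. The counts were made with Cell Ranger on mm10, the processing notes name STAR, and versions are not given in the sources used here. Tables of the combined libraries were not used. Their annotation gave each cell's library, quality flag and cluster. It listed 25010 passed cells, of which 25009 had a barcode in the matrices, out of 25806 barcodes. Barcodes found in more than 1 library had been excluded by the authors against index swapping. Cells flagged by the authors as doublets (cluster C20) were left out, and no doublet caller was run. For 1053 barcodes the listed total and the summed counts were unequal, and the counts were used.

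Counts were summed per mouse and cluster (at least 20 cells) and divided by the sum's total (CPM). In 8 comparisons, sums per mouse and cell type, 2 against 2 mice, were fitted with edgeR 4.0.16 in R 4.3.3 (TMM, filterByExpr, quasi-likelihood test, Benjamini-Hochberg at 0.05). With 2 mice against 2, an exact permutation test could not go below p = 0.333. On simulated counts, 85.5% to 98% of 200 genes changed by a log2 of 2 were recovered. The simulation gave every gene the same dispersion and changed only genes above a minimum count. These shares therefore do not hold for smaller changes, genes with few UMIs or the real spread between mice. Alternatives were RLE factors, DESeq2 1.42.0, no filter, a replicate block, leaving out milk protein genes and leaving out each mouse.

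Shares of cells were also thinned to 1000 UMIs per cell. Limits for 0 counts (3 counts) cover counting error only. The 7 genes and all lists were chosen with earlier results of these data known. Genes were named as follows: the 7 genes, at most 6 list genes per comparison that passed and reached 20 CPM, list genes reaching 20 CPM in a cluster, and the 3 genes most alike. Other list genes are named where a count of calls is 5 or fewer, and were then chosen after their values were seen. Some genes are not reported here, and the list counts leave them out.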

Additional observations from a re-analysis of the deposited data

Results flagged for a closer look

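The cluster C20, which the authors marked as doublets and which entered no sum above, held 103 and 205 cells of the G mice. Genes described here were listed where C20 held at least 20 CPM of them in both mice. Gja1 stood at 237.7 and 303.1 CPM in C20, Gjb2 at 83.71 and 86.34 CPM and Gjb6 at 25.56 and 21.49 CPM, between the levels of C8 and C13 of the same mice for each of the 3 genes. C20 also held 4819 and 6108 CPM of luminal and 6152 and 5176 CPM of basal markers.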

How the results depend on the processing

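With DESeq2 in place of edgeR, the number of genes called was 1471 against 2892 in luminal progenitors, 762 against 1778 in hormone-sensing progenitors, 1141 against 1714 in differentiated hormone-sensing cells, 2848 against 5114 in basal cells from NP to G, 371 against 632 in basal cells from NP to PI, and 1023 against 2368 in alveolar progenitors. With no filter on low counts, the basal comparison of NP with PI gave 18 calls, while the other 7 comparisons stayed within 1.5 times. Leaving out 1 mouse gave 1704 to 2472 calls in luminal progenitors, 476 to 1960 in hormone-sensing progenitors, 928 to 2458 in differentiated hormone-sensing cells, 194 to 891 in basal cells from NP to PI and 609 to 1890 in differentiated alveolar cells. In these fits the stage with a lone mouse is assumed to vary like the other. DESeq2 factors moved the median of all genes in differentiated alveolar cells from -0.14 to 0.43 on the log2 scale.

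Leaving out a mouse turned the log2 difference of Aqp3 in differentiated alveolar cells to 0.201 (without L mouse 1, the lone value then resting on 7 UMIs) and to -11.0 (without L mouse 2, with 0 UMIs left in L, a value that depends on the prior count), moved Aqp5 in PI basal cells between -1.67 and 2.17, and moved Gjb2 in differentiated alveolar cells between -1.63 and -0.18. Gja1 in luminal progenitors lay between -0.50 and -0.12, Gjb6 in differentiated alveolar cells between -12.6 (0 UMIs left in L) and -1.89, and Aqp1 in basal cells between 1.60 and 3.63 from NP to G and between -0.57 (without L mouse 1) and 1.31 from G to L. Of the log2 differences without 1 mouse, 107 stayed within the spread between mice and 40 moved by more. The remaining 1, for stages that did not overlap, changed sign. A change of sign was counted only for such stages. Where stages overlapped, signs changed as well, as for Gja1 in alveolar progenitors (-0.447 to 0.741) and in basal cells from NP to PI (-0.29 to 0.0348). The highest cluster level of each gene with 20 CPM or more moved by no more than 1 SD without milk protein genes or as a mean over cells. Of the other levels, 4 moved by more than that without milk protein genes and 9 as a mean over cells. The furthest were the C9 means without milk protein genes, 185 CPM for Aqp5 and 78.8 CPM for Gjb2. RLE factors and the removal of milk protein genes moved none of the 38 log2 differences by more than the spread between mice, and the plain ratio of mean CPM moved 8. The cause was not tested.

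Labels give the mice numbers 1 and 2 at each stage, but with 2 mice a stage these do not establish pairs. Deviations of same-numbered mice correlated between -0.0515 and 0.0775. A replicate block kept all 8 counts within 1.5 times (3294 against 2892 in luminal progenitors and 518 against 632 in basal cells from NP to PI), and each of the 42 listed results kept its call. Slc12a2 in hormone-sensing progenitors lost its call under DESeq2 (adjusted p = 0.409). Refits without 1 mouse kept the call in 156 cases and lost it in 12, at edgeR adjusted p of 0.0519 to 0.295. Among those lost were Slc12a2, Atp1b1 and Ano1 in hormone-sensing progenitors, Ano1 in differentiated hormone-sensing cells, and Tjp1 in differentiated alveolar cells.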
